A study of Mus musculus with 7 samples.

Results

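The genes described here are 8 that encode the IkB kinase (IKK) complex, the IKK-related kinases with an adaptor of theirs, and 2 MAP3K kinases tied to IKK, of which NIK (Map3k14) acts above it and TPL2 (Map3k8) is released by it: Chuk, Ikbkb, Ikbkg, Ikbke, Tbk1, Tank, Map3k14 and Map3k8. They were chosen by symbol for the known function of their products, with earlier results of these data known, so counts among them are descriptions. All 8 are among the 23329 gene symbols of the deposited count table. RNA was measured in Beta-TC6, an established insulin-secreting line from a mouse pancreatic beta-cell tumour, in 3 libraries from cells treated with IL1B (the cytokine interleukin-1 beta) and 4 from cells given vehicle. All 7 were labelled WT, with no edited gene, and cells of both groups had been synchronised with a 1 hour pulse of 10 micromolar forskolin, so the vehicle group is also forskolin-treated. The line derives from a tumour and is not primary islet tissue. The sources used here do not state the IL1B dose, the length of treatment or the harvest time.

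IKK is the switch through which most inflammatory receptors release NF-kB. It joins 2 kinases, IKK-alpha (Chuk) and IKK-beta (Ikbkb), to a scaffold without kinase activity, NEMO (Ikbkg). IL-1 receptors reach it through the kinase TAK1, IKK-beta then marks the inhibitor IkB-alpha for destruction, and freed NF-kB enters the nucleus. A second, noncanonical route runs from NIK (Map3k14) through IKK-alpha to the precursor encoded by Nfkb2. TPL2 (Map3k8) is held inactive by the NF-kB precursor encoded by Nfkb1 until IKK releases it, and then drives the ERK cascade. TBK1 and IKK-epsilon (Ikbke) resemble the IKK kinases, bind the adaptor TANK and are best known for starting the interferon response. Beta cells carry much IL-1 receptor, and prolonged NF-kB signalling is one known way in which cytokines impair them.

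Libraries held 5335607 to 7513934 counts. The beta-cell markers were present, with 31400 to 36300 CPM (read counts scaled to library size) summed over 8 markers in vehicle and 34000 to 35100 with IL1B. The insulin genes and Iapp make up most of that sum, and of 7 markers tested 2 were called lower and none higher: Pdx1 (log2 fold change -0.56, edgeR adjusted p = 3.0e-07) and Mafa (-0.47, adjusted p = 7.0e-06), both beta-cell transcription factors. Markers of other islet endocrine cells summed to 586 to 636 CPM in vehicle and 527 to 581 with IL1B, and 1 of 3 tested, Irx2, was lower (log2 fold change -0.83, edgeR adjusted p = 0.00228). The part of these shifts in the results was not tested. Summed markers of leukocytes, in which Ikbke and Map3k8 are also known to be expressed, stood at 4.39 to 5.15 CPM in vehicle and 4.83 to 5.88 with IL1B over 10 markers, and 1 of them, Tyrobp, had no count in any library. The 5 endothelial markers summed to 1.5 to 2.86 CPM in vehicle and 3.16 to 4.74 with IL1B, none of the 5 passed the low-count filter, and their part in the results was not tested. The second library of each group stood apart. The chi-square per degree of freedom against other libraries of its group was 3.82 to 4.88 for the second vehicle library and 2.871 to 4.203 for the second IL1B library, against 1.52 to 1.69 for the remaining pairs. The 2 libraries differed in kind. Deviation from the group mean correlated with transcript length in the second vehicle library (Spearman rho -0.540), against 0.215 to 0.297 in the other vehicle libraries. In the second IL1B library rho was 0.017. Numbers of IL1B libraries are those of the table's columns, which do not match the numbers in the sample titles.

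Of the 8 genes, 3 rose with IL1B, Map3k8 8.77-fold, Tank 1.64-fold and Tbk1 1.33-fold, and none fell. The 3 genes of the IKK complex itself did not pass the threshold, nor did Ikbke and Map3k14. The test was edgeR's quasi-likelihood test over all genes with a Benjamini-Hochberg adjusted p of 0.05 as threshold. It called 11.0% of 12480 tested genes, 7.76% as higher and 3.25% as lower. The fitted log2 fold change was above 0 in 7 of the 8 genes and in 47.8% of all tested genes, and its median was 0.35 over the 8 and -0.0087 over all. One of the 7, Ikbkg, turned below 0 with total-count scaling. IL1B and vehicle libraries did not overlap for 5 of the 8 genes, Ikbkb, Ikbke, Tbk1, Tank and Map3k8, and for 21.0% of all tested genes. At an unadjusted edgeR p under 0.05, 5 genes were higher and none lower, and DESeq2 and limma-voom each called 3 higher and none lower after adjustment. The shares of called genes above are for edgeR after adjustment. No share of all tested genes is given for these other counts, so they have no background beside them. In bulk RNA, fewer cells with a transcript and less of it per cell cannot be told apart.

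**Figure D1:**
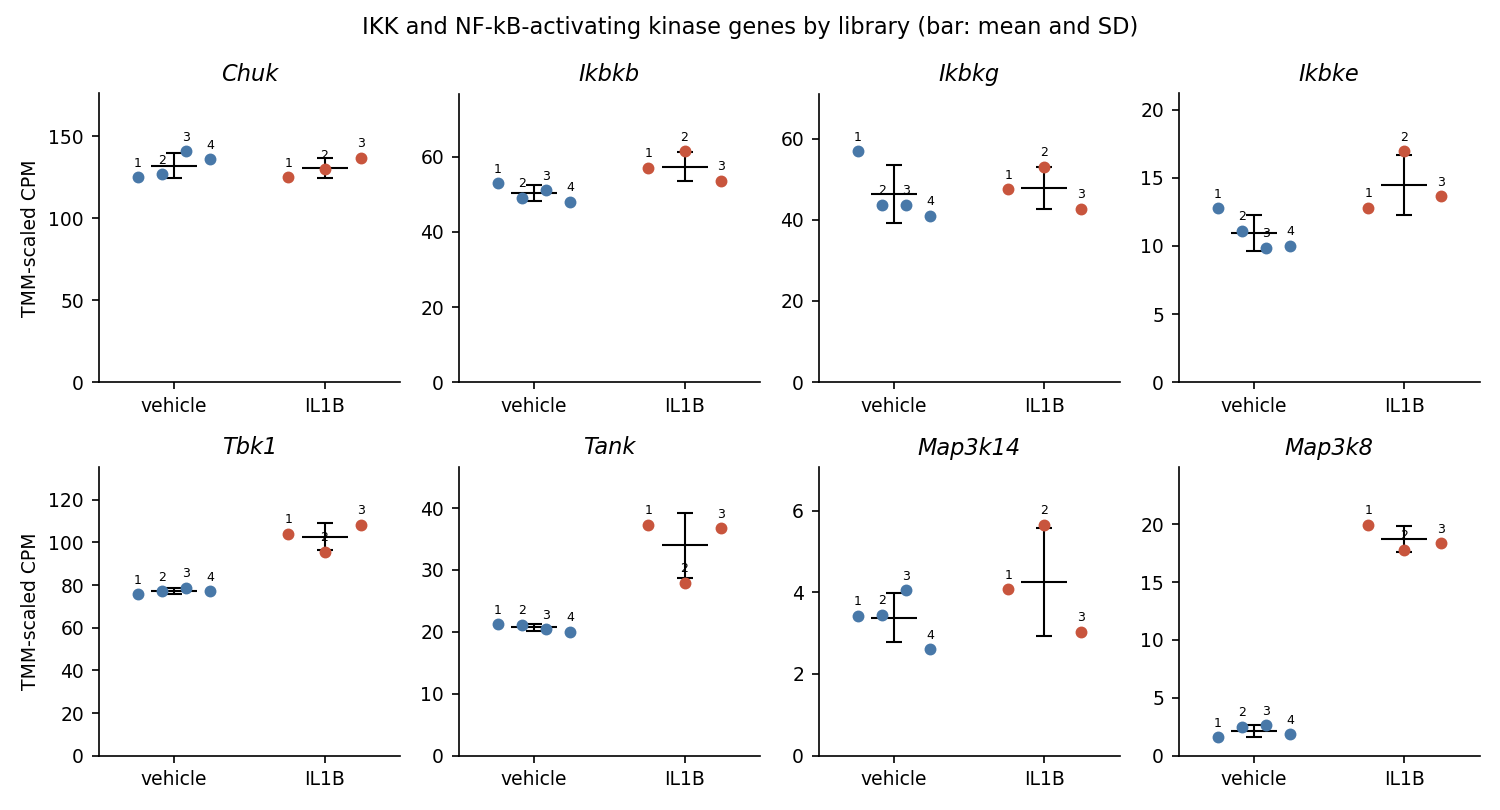
TMM-scaled CPM of the 8 genes (vertical axes from 0) in the 4 vehicle and 3 IL1B libraries, with library numbers beside the points and the mean and SD as black bars. Map3k8 lay at 1.58 to 2.64 CPM in vehicle and 17.8 to 19.96 with IL1B, while Chuk lay in the same range in both groups.

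Chuk encodes IKK-alpha, the kinase needed by the noncanonical route (GRCm38 chromosome 19, 44073335 to 44107480, minus strand). Its vehicle libraries were at 125, 127, 141 and 136 CPM and its IL1B libraries at 125, 129.8 and 137. The groups overlapped over nearly their whole range. The log2 fold change was -0.02 (SE 0.06, edgeR adjusted p = 0.927). Its 95% interval ran from 0.901-fold to 1.09-fold, the narrowest among the 8 genes. Chuk had the most counts of the 8, 732 to 949 per library.

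Ikbkb encodes IKK-beta, the main kinase of IkB-alpha (chromosome 8, 22659212 to 22706589, minus strand). It was at 53.1, 49.2, 51.1 and 48.1 CPM in vehicle and at 57.1, 61.5 and 53.6 with IL1B. Every IL1B library lay above every vehicle library, the nearest being at 53.6 and 53.1 CPM. The log2 fold change of 0.19 (SE 0.08) did not pass after adjustment (unadjusted p = 0.0260, edgeR adjusted p = 0.149). The interval allowed a change between 1.02-fold and 1.27-fold.

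Ikbkg encodes NEMO, the scaffold that binds ubiquitin chains and brings IKK to its activators (chromosome X, 74393290 to 74453854, plus strand). Vehicle libraries were at 56.9, 43.7, 43.7 and 41.0 CPM and IL1B libraries at 47.5, 53.0 and 42.7. The first vehicle library was the highest of all 7, and the groups overlapped. The log2 fold change was 0.03 (SE 0.11, edgeR adjusted p = 0.905), and without the first vehicle library it was 0.16 (adjusted p = 0.418). Spread between vehicle libraries, a coefficient of variation of 15.4%, exceeded the 5.92% that counting alone gives. The gene shares 418 exon bases, 5.15% of its own, with G6pdx on the opposite strand, and since no source gives strand for the counting, reads there could belong to either. G6pdx was at 56.3 CPM in the first vehicle library and at 53.8 to 61.5 in the other vehicle ones.

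Tbk1 encodes the kinase TBK1, which phosphorylates interferon regulatory factors and autophagy receptors (chromosome 10, 121546455 to 121586787, minus strand). Its 4 vehicle libraries were close together, at 75.8, 77.0, 78.8 and 77.1 CPM. Its IL1B libraries were at 104, 95.7 and 108 CPM, all above vehicle. The rise was 1.33-fold, a log2 change of 0.41 (SE 0.07) with an edgeR adjusted p of 1.6e-04, and with an interval from 1.21-fold to 1.47-fold. The coefficient of variation between vehicle libraries was 1.59%, below the 4.59% that counting alone gives.

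Tank encodes the adaptor TANK, which binds TRAF proteins and carries TBK1 and IKK-epsilon (chromosome 2, 61578585 to 61654171, plus strand). It was at 21.2, 21.1, 20.4 and 20.1 CPM in vehicle and at 37.3, 27.9 and 36.8 with IL1B. The groups did not overlap, although the second IL1B library lay well below the other two. Tank rose 1.64-fold, a log2 change of 0.72 (SE 0.11) with an edgeR adjusted p of 7.5e-05, and the interval ran from 1.41-fold to 1.92-fold.

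Ikbke encodes IKK-epsilon, the inducible relative of TBK1 (chromosome 1, 131254343 to 131279606, minus strand). Vehicle libraries were at 12.8, 11.1, 9.87 and 10.0 CPM and IL1B libraries at 12.8, 17.0 and 13.7. The lowest IL1B library, at 12.82 CPM, was barely above the highest vehicle library, at 12.77. The log2 fold change of 0.38 (SE 0.14) was near the 0.41 of Tbk1 but missed the threshold (unadjusted p = 0.0138, edgeR adjusted p = 0.0977). Its interval ran from 1.06-fold to 1.60-fold and its libraries held 54 to 102 counts. Ikbke shares 159 exon bases, 1.76% of its own, with Gm28914 and 65, or 0.72%, with Gm28913, both on the opposite strand. When both second libraries were left out the value was 0.26 (adjusted p = 0.328).

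Promoter windows show where the letters of an NF-kB site stand beside these genes. RefSeq (GRCm38.p6) gave windows of 300 bases, 250 before to 50 after a start, for 6 of the 8 genes, all but Ikbkb and Map3k8. They were searched on both strands for the 10-letter kB consensus, which 8.46% of all 32851 windows hold. Among tested genes with a window, 12.7% of 8934 had it in at least 1. Of the 6 genes Tank alone held it, with 1 site beside each of its 2 groups of starts. A count of 1 in 6 genes is near the share among tested genes. Tank also had more windows than Tbk1 or Ikbke, and so more chances of a match. The pair of Tank windows below is shown for those sites, in capitals. The Tbk1 and Ikbke windows are shown as those of a related pair, of which Tbk1 passed the threshold and Ikbke did not, and neither holds the consensus.
Tank, chr2:61592847-61593146, plus strand: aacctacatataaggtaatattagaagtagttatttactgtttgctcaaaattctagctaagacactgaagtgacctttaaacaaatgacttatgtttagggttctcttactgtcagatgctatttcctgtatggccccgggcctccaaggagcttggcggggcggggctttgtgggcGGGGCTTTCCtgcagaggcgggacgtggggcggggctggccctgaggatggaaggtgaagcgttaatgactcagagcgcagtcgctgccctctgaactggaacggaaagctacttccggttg
Tank, chr2:61578307-61578606, plus strand: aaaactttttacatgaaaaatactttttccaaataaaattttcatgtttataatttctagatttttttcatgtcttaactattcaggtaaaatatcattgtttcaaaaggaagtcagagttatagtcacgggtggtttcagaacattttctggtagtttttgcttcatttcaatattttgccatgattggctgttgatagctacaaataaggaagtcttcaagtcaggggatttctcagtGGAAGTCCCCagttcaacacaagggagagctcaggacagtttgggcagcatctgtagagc
Tbk1, chr10:121586745-121587044, minus strand: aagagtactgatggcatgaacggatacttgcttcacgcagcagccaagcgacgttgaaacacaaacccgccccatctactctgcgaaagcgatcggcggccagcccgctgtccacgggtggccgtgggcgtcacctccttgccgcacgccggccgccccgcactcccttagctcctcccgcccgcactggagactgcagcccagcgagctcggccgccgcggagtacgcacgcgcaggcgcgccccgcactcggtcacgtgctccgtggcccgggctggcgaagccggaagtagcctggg
Ikbke, chr1:131279514-131279813, minus strand: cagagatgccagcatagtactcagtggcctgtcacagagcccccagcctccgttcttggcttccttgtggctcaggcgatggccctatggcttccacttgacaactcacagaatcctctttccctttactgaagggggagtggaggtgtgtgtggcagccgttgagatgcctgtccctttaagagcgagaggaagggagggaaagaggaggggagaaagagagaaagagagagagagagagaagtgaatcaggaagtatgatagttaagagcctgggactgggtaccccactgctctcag

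The site in the first Tank window, GGGGCTTTCC, begins at position -72 from the start used for that window. In the second window the capitals begin at position -10 from the start as printed, and the site reads GGGGACTTCC on the opposite, minus strand. The narrower motif GGANTTTCC, searched on both strands and overlapping part of the kB consensus, is in 412 of the 32851 windows and in none of the 6 genes' windows. A match is a run of letters, and binding was not measured here.

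Of the 2 MAP3K genes, Map3k8 rose and Map3k14 did not pass. Map3k8 encodes TPL2, the kinase that links IKK to ERK (chromosome 18, 4331327 to 4353015, minus strand). It had 12, 16, 15 and 10 counts in the vehicle libraries and 137, 107 and 109 in the IL1B libraries. These equal 1.58, 2.51, 2.64 and 1.86 CPM in vehicle and 19.96, 17.8 and 18.4 CPM with IL1B, groups far apart. The rise was 8.77-fold, a log2 change of 3.13 (SE 0.18) with an edgeR adjusted p of 9.0e-11 and an interval from 6.79-fold to 11.3-fold. By log2 fold change Map3k8 ranked 43 of the 12480 tested genes. In vehicle 3 of 4 libraries were above the filter's level of 1.64 CPM, so Map3k8 also passed the filter on vehicle libraries.

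Map3k14 encodes NIK, the kinase of the noncanonical route, whose protein is known to be kept low by constant degradation (chromosome 11, 103219762 to 103267472, minus strand). It had 26, 22, 23 and 14 counts in vehicle and 28, 34 and 18 with IL1B. In CPM these were 3.42, 3.45, 4.05 and 2.60 in vehicle and 4.08, 5.65 and 3.04 with IL1B, groups that overlapped. The log2 fold change was 0.32 (SE 0.25, edgeR adjusted p = 0.502), and without the second IL1B library 0.08 (adjusted p = 0.931). The interval ran from 0.868-fold to 1.81-fold. The coefficient of variation between IL1B libraries was 30.9%, against 19.4% from counting alone. The gene shares 135 exon bases, 2.06% of its own, with 1700028N14Rik on the same strand.

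**Figure D2:**
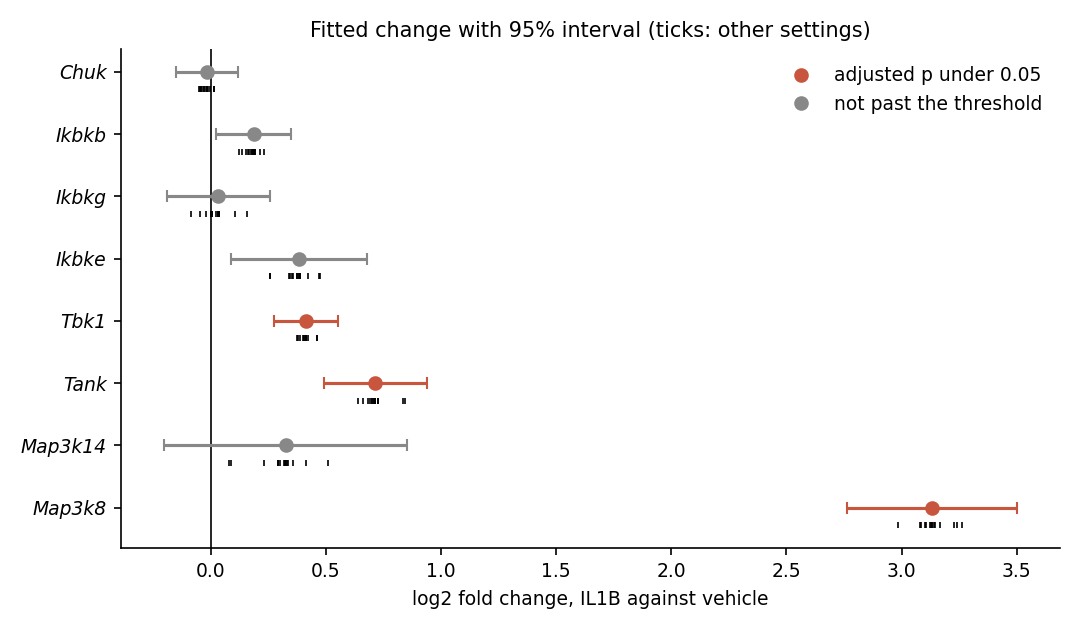
Fitted log2 fold changes of the 8 genes, IL1B against vehicle (horizontal axis), with 95% intervals, and below each the values under the other settings as ticks. Intervals of Map3k8, Tank and Tbk1 lay above 0 with an adjusted p under 0.05, and those of Ikbkb and Ikbke lay above 0 without passing adjustment.

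Within the IL1B group, the second library took opposite places for the genes that passed and most of those that did not. It was the lowest of 3 for Map3k8 (17.8 CPM), Tank (27.9 CPM) and Tbk1 (95.7 CPM). It was the highest for Ikbkb (61.5 CPM), Ikbkg (53.0 CPM), Ikbke (17.0 CPM) and Map3k14 (5.65 CPM). When the second library of both groups was left out, a setting added after the data were seen, the log2 fold changes were 3.26 for Map3k8, 0.84 for Tank and 0.46 for Tbk1, and 0.12 for Ikbkb, -0.08 for Ikbkg, 0.26 for Ikbke and 0.09 for Map3k14. The same 3 genes passed.

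Ratios of counts within a library need no scaling between libraries, and 4 were compared. Map3k8 had fewer counts than Map3k14 in every vehicle library (ratios 0.462, 0.727, 0.652 and 0.714) and more in every IL1B library (4.89, 3.15 and 6.06). That ratio was 7.21-fold higher with IL1B (log2 difference 2.85, SE 0.32), with the groups apart. An exact two-sided permutation test gave p = 0.0286, the smallest that 35 splits of 7 libraries allow, and 0.0571 adjusted over the 4 ratios. With only 2 of the 4 ratios at the smallest p, 0.0571 is the lowest adjusted value they could take. Missing 0.05 therefore depends on the number of libraries and also on the other ratios. Those had exact permutation p = 0.114 (Ikbkb to Chuk) and 0.943 (Ikbke to Tbk1).

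The ratio of Tank to Tbk1 counts was 0.2795, 0.274, 0.2595 and 0.2602 in vehicle and 0.358, 0.292 and 0.340 with IL1B, again without overlap. The log2 difference was 0.29 (SE 0.09, exact permutation p = 0.0286, adjusted p = 0.0571), larger than the SD within either group, and again at the smallest p the design allows. In the nearest libraries the ratios were 0.2795 and 0.292.

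The related pair Ikbke and Tbk1 did not shift against each other measurably. Their ratio was 0.168, 0.144, 0.125 and 0.1301 in vehicle and 0.123, 0.177 and 0.126 with IL1B, so that the groups covered the same range. The log2 difference was -0.01 (SE 0.19, exact permutation p = 0.943, adjusted p = 0.943). The ratio of Ikbkb to Chuk was 0.425, 0.388, 0.363 and 0.354 in vehicle and 0.456, 0.474 and 0.392 with IL1B. Its log2 difference of 0.20 (SE 0.10, exact permutation p = 0.114, adjusted p = 0.152) did not pass, and the groups overlapped.

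**Figure D3:**
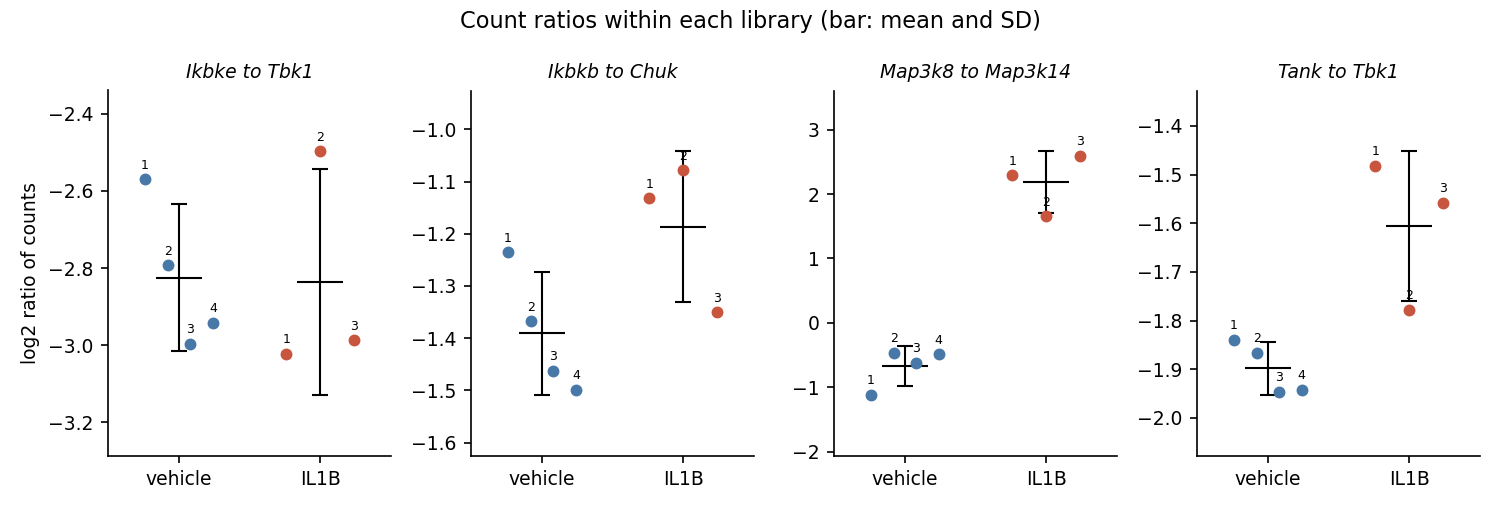
Log2 ratios of the counts of 2 genes in the same library (vertical axes) for 4 vehicle and 3 IL1B libraries, with library numbers, means and SD. Ratios of Map3k8 to Map3k14 and of Tank to Tbk1 do not overlap between groups, and the other two do.

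Levels of different genes were set side by side as CPM per kb of exon. In vehicle, Chuk was highest at 26.0 ± 1.48 CPM per kb (SD, n = 4), then Tbk1 at 19.7 ± 0.313, Ikbkg at 5.71 ± 0.880, Tank at 3.397 ± 0.0907, Ikbkb at 2.64 ± 0.115 and Ikbke at 1.21 ± 0.148. Map3k14 (0.516 ± 0.0912 CPM per kb) and Map3k8 (0.477 ± 0.113 CPM per kb) came last and overlapped each other, while no other neighbours in this order overlapped. With IL1B, Tbk1 (26.3 ± 1.64 CPM per kb, n = 3) and Chuk (25.7 ± 1.15 CPM per kb) overlapped at the top. Ikbkg (5.89 ± 0.638 CPM per kb) and Tank (5.58 ± 0.864 CPM per kb) also overlapped. Map3k8 moved from rank 8 to rank 5, at 4.15 ± 0.249 CPM per kb, above Ikbkb (3.01 ± 0.206 CPM per kb), Ikbke (1.61 ± 0.242 CPM per kb) and Map3k14 (0.650 ± 0.201 CPM per kb).

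The order depends on the length used, in the middle and also among overlapping neighbours at the ends. The Ikbkb gene model holds 19078 exon bases over 14 transcripts, and its longest transcript has 4845. Per kb of longest transcript Ikbkb had rank 3 in vehicle, at 10.4 ± 0.452 CPM per kb (n = 4), above Tank (7.68 ± 0.205) and Ikbkg (6.62 ± 1.02). On that scale Chuk and Tbk1 remained first and second in vehicle, at 37.7 ± 2.15 and 25.5 ± 0.405 CPM per kb. With IL1B (n = 3) Chuk was above Tbk1, at 37.3 ± 1.67 and 34.0 ± 2.12 CPM per kb, and the 2 overlapped. Map3k8 had rank 7 in vehicle, at 0.836 ± 0.199 CPM per kb, overlapping Map3k14 (0.796 ± 0.141) at rank 8. With IL1B Map3k8 again had rank 5, at 7.28 ± 0.437 CPM per kb, there overlapping Ikbkg (6.83 ± 0.740).

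**Figure D4:**
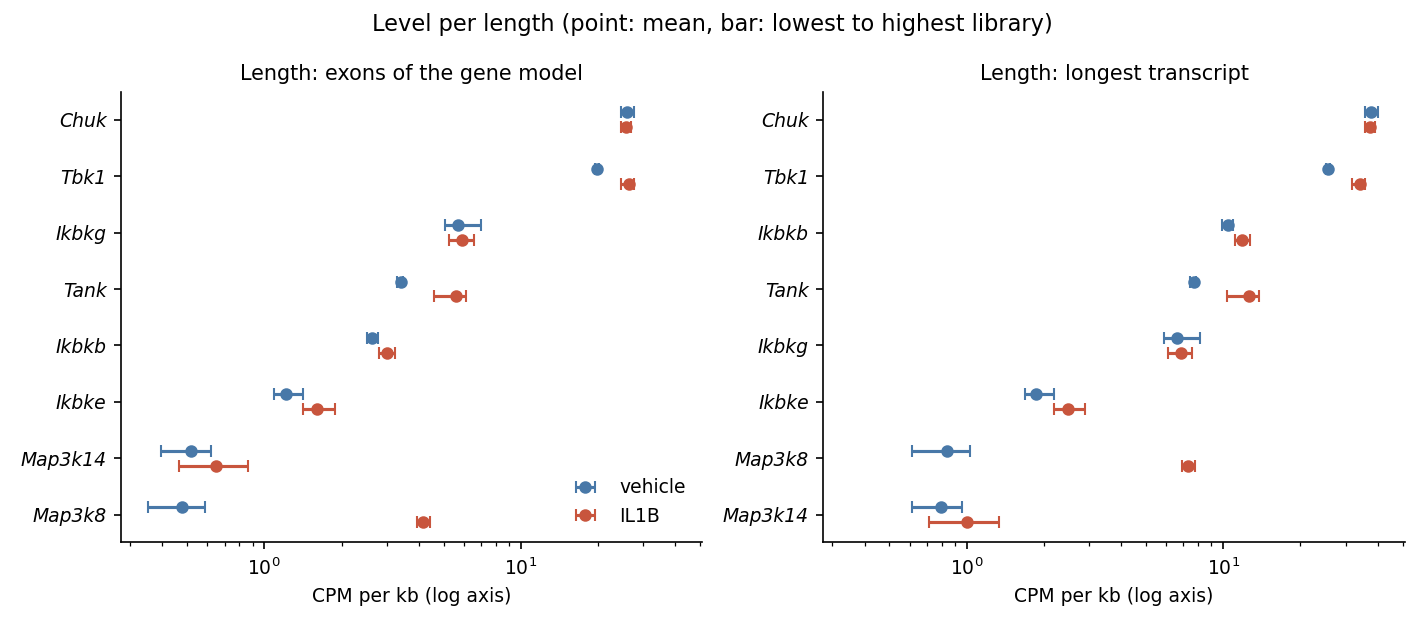
Mean CPM per kb on a log axis for the 8 genes in vehicle and IL1B libraries, by exon length of the gene model and by the longest transcript. Bars run from the lowest to the highest library, and Map3k8 shows the widest gap between groups.

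The genes around these 8 were counted in 7 lists, some of which share members. The lists, like the 8 genes, were chosen with earlier results of these data known, so their counts are descriptions. Each count of edgeR calls after adjustment stands against 7.76% higher and 3.25% lower among all tested genes. No such share is given for counts at an unadjusted p or by DESeq2 or limma-voom. All 11 tested IkB and NF-kB subunit genes rose, with a median log2 fold change of 3.43. They include Nfkbia, the IKK substrate IkB-alpha (15.4-fold), and Nfkb1, whose precursor holds TPL2 (5.43-fold). Along the path from the IL-1 receptor to TAK1, 2 of 16 tested genes rose, Myd88 (1.54-fold) and Il1r1 (1.19-fold), and none fell. The list's median was 0.04. Irak1 (log2 fold change 0.07, SE 0.06), Traf6 (0.03, SE 0.09) and the TAK1 gene Map3k7 (0.05, SE 0.06) did not pass, and Traf6 changed sign with total-count scaling. At an unadjusted edgeR p under 0.05, 1 gene of that list was lower, Tab1, named after its value was seen, and DESeq2 and limma-voom called none lower after adjustment. Il1r1 lost its call without IL1B library 1 (edgeR adjusted p = 0.0515) or 3 (adjusted p = 0.0991).

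Among 12 partners of the IKK complex and editors of its ubiquitin chains, 3 rose and none fell, with a median log2 fold change of 0.11. These were Tnfaip3, which encodes the deubiquitinase A20 (17.7-fold), Tnip1, which encodes the A20 partner ABIN1 (3.05-fold), and Cdc37, the kinase-loading partner of HSP90 (1.20-fold). Cdc37 lost its call without IL1B library 3 (edgeR adjusted p = 0.0588). No gene of this list was lower at an unadjusted edgeR p under 0.05, or by DESeq2 or limma-voom.

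Of 9 tested adaptors and substrates of TBK1 and IKK-epsilon, 3 rose and none fell. Traf3, a ubiquitin ligase that binds TANK, went from 40.0 ± 2.80 CPM (SD, n = 4) to 98.7 ± 0.954 (n = 3), a 2.46-fold rise (SE 0.07 on the log2 scale, edgeR adjusted p = 9.0e-11). The autophagy receptors that TBK1 phosphorylates also rose, Optn 1.70-fold and Sqstm1 1.52-fold. Azi2, another TBK1 adaptor, did not pass (log2 value 0.05, SE 0.09, edgeR adjusted p = 0.802). The list's median was 0.12, and none of its genes was lower at an unadjusted edgeR p under 0.05, or by DESeq2 or limma-voom.

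On the noncanonical route, 7 of 10 tested genes rose and none fell, while its kinase Map3k14 did not pass. Nfkb2, the precursor that NIK and IKK-alpha process, rose 11.2-fold, and its partner Relb 10.8-fold. Traf3, which with TRAF2 and the cIAP proteins marks NIK for degradation, is also counted here. Birc3, a cIAP gene, had 12 counts in all vehicle libraries together and 434 in those with IL1B (46.3-fold by the fit). It passed the filter through the IL1B libraries alone, so it could not have been called lower. The median over the list was 1.18 on the log2 scale, and none of its genes was lower at an unadjusted edgeR p under 0.05, or by DESeq2 or limma-voom.

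Around TPL2, 3 of 12 partner and MAP kinase genes rose and none fell, with a median log2 fold change of 0.11. Besides Nfkb1 these were Map2k3 (1.59-fold) and Map2k6 (1.93-fold), kinases that act on p38. Tnip2, which encodes the TPL2 partner ABIN2, did not pass (log2 value 0.20, SE 0.14, edgeR adjusted p = 0.456). At an unadjusted edgeR p under 0.05, 1 gene of this list was lower, the p38 gene Mapk14 (edgeR adjusted p = 0.0898), named after its value was seen. With upper-quartile or total-count scaling 1 gene of the list passed as lower, and with DESeq2 or limma-voom none did. Of 14 other tested MAP3K genes, 1 rose, Map3k11 (1.22-fold), and 1 fell, Map3k9 (1.28-fold lower), both mixed-lineage kinases. With 7.14% of the list higher against 7.76% of all tested genes, the count was near the background. The Map3k11 call was lost when vehicle library 3, IL1B library 1 or IL1B library 2 was left out, with edgeR adjusted p from 0.0551 to 0.120. Map3k9 lost its call by DESeq2 (adjusted p = 0.121), by limma-voom (adjusted p = 0.0512) and whenever 1 library other than the second vehicle library was left out (edgeR adjusted p 0.0554 to 0.152).

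**Figure D5:**
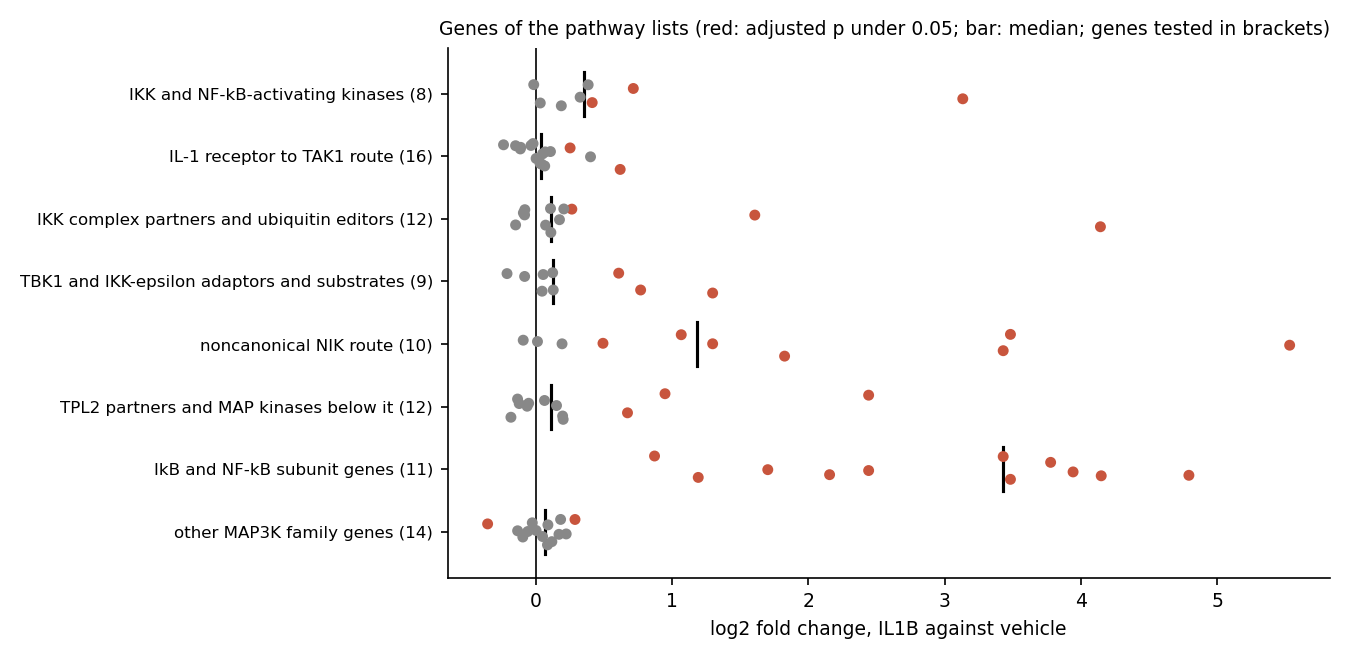
Log2 fold changes (horizontal axis) of the tested genes of each list, red where the adjusted p is under 0.05, with the list's median as a bar. All 11 IkB and NF-kB subunit genes lie above 0 in red, while 3 of the 8 kinase and adaptor genes do.

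The genes whose log2 CPM followed Map3k8, the member with the smallest adjusted p, most closely over the 7 libraries were Tifa (Pearson r = 0.997), Ptpn2 (r = 0.997) and Ifngr2 (r = 0.996), out of 10901 compared. The 7 points share the split between IL1B and vehicle, which sets most of each value. Tifa encodes an adaptor that binds TRAF6, and went from 2.41 ± 0.440 CPM (SD, n = 4) to 9.83 ± 0.168 (n = 3). Ptpn2, a tyrosine phosphatase of cytokine receptor signalling, went from 72.9 ± 3.29 to 106 ± 1.76 CPM. Ifngr2, a chain of the interferon-gamma receptor, went from 20.8 ± 1.64 to 86.7 ± 3.17 CPM.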

How the data were processed

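Per the file headers and values, the authors deposited raw counts per gene symbol for 7 libraries, 3 IL1B and 4 vehicle. Per the labels' protocols the libraries were NEBNext Ultra II from polyadenylated RNA. Per the submitters' processing notes the build was mm10, and STAR, RSEM and DESeq2 are among the tools named, without roles. The sources used here do not state how reads were counted, with which annotation or strand setting. Counts were analysed with edgeR 4.0.16 in R 4.3.3: filterByExpr (12480 genes kept), TMM scaling, and the quasi-likelihood test between the groups, fitted to the 7 libraries without covariates, with Benjamini-Hochberg adjustment over all tested genes. CPM are counts scaled by TMM library sizes, except the summed cell-type markers, the filter's level and the floor, which use total counts. Each SE was derived from the fitted log2 value and its F statistic, and intervals are 95%.

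Nothing states that libraries of a group came from different cultures. The p-values therefore reflect the spread among these libraries, which may be technical. No pair agreed within sampling noise, and all 7 were kept. A count of 3, the floor, equals 0.399 to 0.562 CPM. Of 141 list symbols 140 were found, some by RefSeq synonyms. Gene models are GENCODE M21 on GRCm38, the assembly of mm10. None of the 8 members shares over 3.18% of its longest transcript with another gene at 95% identity (blastn 2.17.0). The other genes named were not searched. The members and lists were chosen with earlier results of these data known. Named are all 8 members, up to 4 called genes of each list, their direct partners and the 3 genes most like the member with the smallest p. Promoters are shown for Tank and for Ikbke, a relative that did not pass; that of Tbk1 was added after its values were seen. The script was tested on simulated data. Other settings tried were scaling by RLE, by upper quartile and by total count, no filter, 1 CPM in 3 libraries, DESeq2 1.42.0, limma-voom (limma 3.58.1), 0.5 added to counts in ratios, the longest transcript as length, a narrower motif, leaving out each library, and, added later, leaving out the second library of both groups.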

Additional observations from a re-analysis of the deposited data

Results flagged for a closer look

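Dixon's test was applied to 36 sets of 4 vehicle values, of named genes and of the ratios, and singled out a library in 4 of them, where chance gives about 1 in 20. For Ikbkg the first vehicle library stood at 56.87 CPM and the others at 41.0 to 43.7, a gap of 0.830 of the range, at the edge of the test. The second vehicle library stood apart for Il1r1 (241.93 CPM, others 289 to 291). It also stood apart for Map3k9 (20.2 CPM, others 24.5 to 24.9). For Map2k6 the third vehicle library was at 7.76 CPM and the others at 10.3 to 10.6.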

How the results depend on the processing

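The calls of Map3k8, Tank and Tbk1 and the absence of a call for the other 5 genes were the same in all 15 other fits, which comprise 7 that leave out 1 library and 8 other settings. The log2 fold changes over all of these ran from 2.98 to 3.26 for Map3k8, 0.64 to 0.84 for Tank and 0.38 to 0.46 for Tbk1. Genes near 0 changed sign: Chuk ran from -0.0492 to 0.0163 when 1 library was left out and Ikbkg from -0.0484 to 0.1554. Ikbkg was also at -0.0002 with total-count scaling and -0.0849 without the second library of both groups, and Traf6 at -0.0019 with total-count scaling. Traf6 (-0.024 to 0.0835) and Azi2 (-0.0354 to 0.13) crossed 0 when 1 library was left out. In these fits the number of genes called higher was 1 to 2 in the list from the IL-1 receptor to TAK1, 2 to 3 among IKK partners (4 without the second library of both groups) and 0 to 1 among other MAP3K genes, of which 0 to 1 were lower. DESeq2 and limma-voom called 0 other MAP3K genes lower, and upper-quartile and total-count scaling called 1 gene lower in the TPL2 list. The ratios kept their sign in the settings tried, except Ikbke to Tbk1, whose difference ran from -0.18 to 0.08 when 1 library was left out; with 6 or fewer libraries that test cannot reach 0.05. By longest transcript, 4 of 8 genes kept their rank per kb in vehicle and 3 of 8 with IL1B. The narrower motif was in 0 of the genes' promoters. No paired analysis was possible because the numbers of the IL1B columns do not match those of the sample titles. The smallest gene counts, 10 to 34 per library for Map3k14 and for Map3k8 in vehicle, give a counting variation of 19.4% to 27.5%.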
